A study of Mus musculus with 6 samples.

Results

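miR-802 is a microRNA of kidney, liver, pancreas and intestine that is made from 1 hairpin, and its mature arms mmu-miR-802-5p and mmu-miR-802-3p (miR-802-5p and miR-802-3p below, without the mouse prefix) are followed here through the renal cortex of 6 mice. The arms were taken by their mature names and make up 2 of the 1900 names in the count tables, each with a single row. All 6 animals were C57BL/6 mice kept for 8 weeks on a steatohepatitis diet that the labels call HF/HC/HS/BA and the design text describes as rich in fat and cholesterol with bile salt. In 3 of them (diet only) nothing was added, and in the other 3 the diet held tofogliflozin, an inhibitor of the glucose transporter SGLT2 of the proximal tubule. The sources used here give no age, sex or drug dose, and no mice on an ordinary diet were analysed here, so a link of miR-802 to obesity could not be examined.

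As background, a microRNA is cut from a folded precursor by Drosha and Dicer, and 1 strand of the resulting duplex is usually kept in Argonaute while the other is degraded. The kept strand pairs through its seed, bases 2 to 8, with messenger RNAs and lowers their output. In obese mice miR-802-5p has been described as raised in liver and in kidney, and in kidney as repressing Nkrf, a repressor of NF-κB target genes.

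The hairpin and its arms are printed here because the results turn on how few reads came from either arm and how evenly they were divided. The sequences are from RefSeq on GRCm38.p6, the same assembly as mm10, the build in the submitters' processing notes. The Mir802 hairpin of 97 bases lies at chr16:93369720-93369816 on the plus strand, the 5p arm at chr16:93369737-93369758 and the 3p arm at chr16:93369775-93369796. Capitals mark both arms in the hairpin, and the seed in each mature sequence.
Mir802 hairpin: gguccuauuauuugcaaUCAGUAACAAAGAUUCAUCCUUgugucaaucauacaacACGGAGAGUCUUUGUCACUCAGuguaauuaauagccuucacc
miR-802-5p: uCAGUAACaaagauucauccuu
miR-802-3p: aCGGAGAGucuuugucacucag
In GENCODE M21 the hairpin overlaps no other annotated gene. The nearest is the long non-coding RNA 1810044K17Rik on the same strand, which ends 690 bases before it, and the nearest protein-coding genes are Setd4, 213640 bases after it, and Runx1, 543570 bases before it. Folded with RNAfold, the hairpin had a free energy of -30.8 kcal/mol, and 16 of the 22 bases of the 5p arm paired with the 3p arm. Neither seed was shared with any other of the 1679 mature names in the RefSeq table, and the closest other mature sequence was 8 edits away from either arm (miR-717 from the 5p arm, miR-1843b-5p from the 3p arm), so miR-802 stands as a family of its own in that table.

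Matches to the 5p seed were looked for in the 3′ UTR of Nkrf, to show what the seed would pair with. The letters searched were GTTACTG, the reverse complement of the 5p seed, on the transcript strand only, in the longest GENCODE M21 3′ UTR of each gene. Nkrf held 1 match, 200 bases into a 3′ UTR of 1015 bases. The stretch of 22 bases that holds it lies at chrX:36888348-36888369 on the minus strand, and is given in DNA letters with the match, at chrX:36888349-36888355, in capitals.
Nkrf: gatgatattgtgcaGTTACTGt
A match is not rare, since 8.96% of the 21020 genes with an annotated 3′ UTR held one. Over 3′ UTRs cut to the length of that of Nkrf the share was 6.43% of 10154. The letters CTCTCCG, which pair with the 3p seed, were not in that 3′ UTR and were in 3.00% of all. No messenger RNA was measured in these tables, so the match is a description of sequence.

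miR-802 was barely sampled in these libraries, which held 8574081 to 29649106 miRNA counts each. The 5p arm had 13, 16 and 16 reads in diet-only replicates 1, 2 and 3, and 10, 1 and 18 reads in tofogliflozin replicates 1, 2 and 3. Over all 6 libraries the 5p arm had 74 reads and the 3p arm 83. As CPM, which are reads scaled to the miRNA counts of their library, the 5p arm stood at 0.438, 0.859 and 0.815 on the diet alone and at 0.557, 0.117 and 0.799 with tofogliflozin. Tofogliflozin replicate 2, with 1 read among 8574081, was the lowest, the other 5 libraries lay between 0.438 and 0.859 CPM, and the groups overlapped.

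For the 3p arm the reads numbered 37, 20 and 10 on the diet alone and 8, 1 and 7 with tofogliflozin, again by replicate. These are 1.25, 1.07 and 0.509 CPM on the diet alone and 0.446, 0.117 and 0.311 CPM with tofogliflozin. The highest tofogliflozin library was below the lowest diet-only library, so the groups did not overlap, but diet-only replicate 3 and tofogliflozin replicate 1 were 10 reads against 8.

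**Figure D1:**
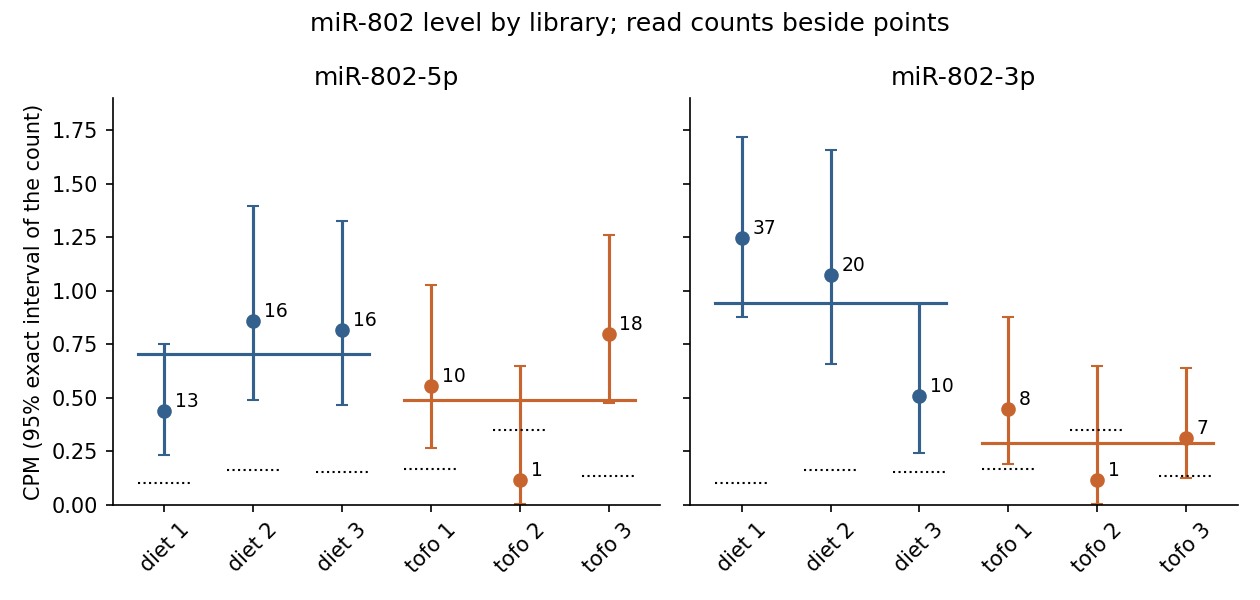
The vertical axis is CPM of miR-802-5p (left) and miR-802-3p (right) in each of the 6 libraries, with exact 95% intervals of the count, read counts beside the points, group means as solid lines and the level of 3 reads as dotted lines. The 5p intervals of all 6 libraries overlap, while the 3p points of the 3 diet-only mice, 37, 20 and 10 reads, all sit above those of the tofogliflozin mice.

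Counting error alone is wide at such depth. The exact (Clopper-Pearson) 95% interval of the 5p arm in tofogliflozin replicate 2 ran from 0.00295 to 0.650 CPM, and that in diet-only replicate 2, the highest library, from 0.491 to 1.39 CPM, so these extremes overlap. For the 3p arm the interval of diet-only replicate 1, from 0.879 to 1.72 CPM, lay above those of tofogliflozin replicate 2 (up to 0.650) and replicate 3 (up to 0.640) and just above that of replicate 1 (up to 0.878), while that of diet-only replicate 3, from 0.244 to 0.937 CPM, overlapped all 3 tofogliflozin libraries. The level of 3 reads, set here as a floor, was 0.101 to 0.350 CPM, and tofogliflozin replicate 2 was below it in both arms. Reads carry no molecular identifiers, so intervals and levels of this kind cover counting error only.

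Among all names with a count in any library, both arms sat in the middle of the abundance order. By mean CPM miR-802-3p had rank 440 and miR-802-5p rank 446 of 1026 mature names with a count in any library, above 57.1% and 56.5% of them. Single libraries had 696 to 788 names with a count. In these the rank of the 5p arm ran from 392 to 590 (median 426.5) and that of the 3p arm from 377 to 590 (median 464). The 5p arm was above 0% to 47.4% of the names counted in a library, and the 3p arm above 0% to 52.0%. The lowest place, 590, was that of tofogliflozin replicate 2, where 1 read per arm put both level with every other name seen once. Directly above the 5p arm by mean CPM (0.598) were miR-1668 (0.607) and miR-6914-3p (0.605), and directly below it miR-23a-5p and miR-5122 (both 0.593), which differ from it by far less than its SD of 0.288 over the 6 libraries.

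**Figure D2:**
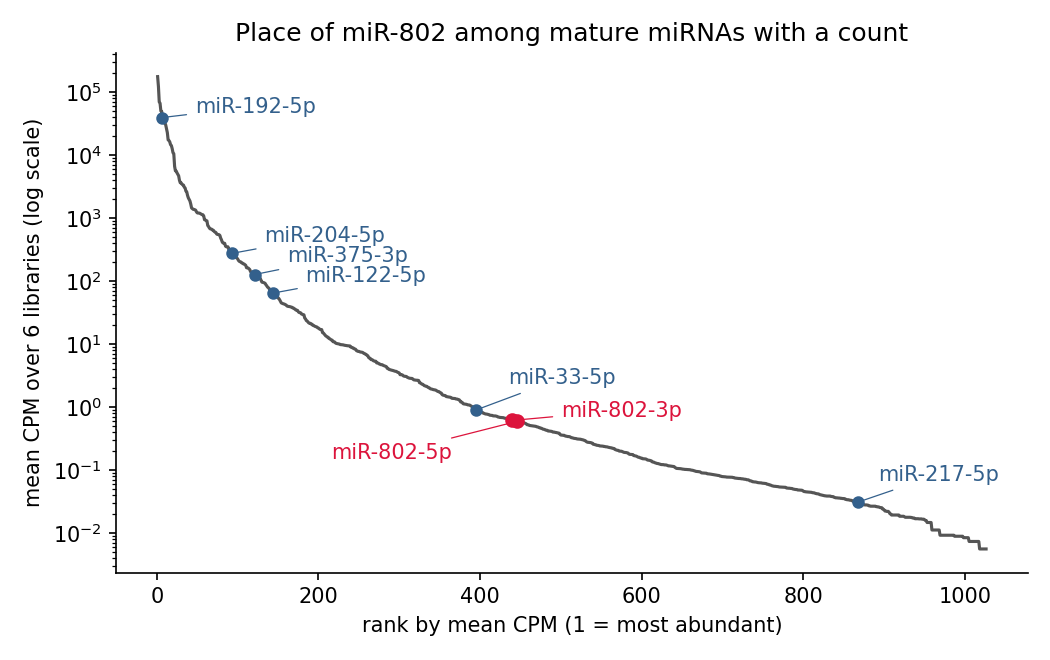
The mean CPM over 6 libraries (vertical, log scale) is plotted against the rank of each of the 1026 mature names with a count (horizontal). Both arms of miR-802, at ranks 440 and 446, lie far below the tubule miRNA miR-192-5p at rank 7 and below miR-122-5p at rank 144, and above the pancreatic miR-217-5p at rank 867.

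Both miR-802 arms were below each of the 12 markers of nephron epithelium by mean CPM, though not far below the lowest, miR-215-5p, at 1.46 CPM. miR-192-5p, an abundant miRNA of kidney and liver, was at 39641 CPM, 66342 times the level of miR-802-5p, and miR-10a-5p, from a Hox cluster, was at 66783 CPM. miR-30a-5p and miR-30c-5p, of a family rich in nephron epithelium, were at 16282 and 22859 CPM, and miR-204-5p of the tubule was at 277 CPM. The 12 fixed markers of tubule and other nephron epithelium summed to 159246 to 170540 CPM on the diet alone and 152665 to 191018 CPM with tofogliflozin. In whole cortex, fewer cells that make a miRNA and less of it per cell cannot be told apart, and these tables do not place miR-802 in the tubule.

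Liver, pancreas and blood markers were set beside miR-802, since liver and pancreas also make it. miR-122-5p, the main miRNA of hepatocytes, was at 60.2, 29.9 and 33.1 CPM in the diet-only libraries and at 37.1, 192 and 36.7 CPM with tofogliflozin. Its highest value was in tofogliflozin replicate 2, the library with 1 read for either miR-802 arm, and its other arm miR-122-3p was at 0 in all 6. Of the pancreatic markers, the acinar miR-217-5p had 5 reads in all, miR-216a-5p 4 and miR-216b-5p 2, while miR-375-3p, found in islets and other epithelia, averaged 122 ± 2.33 CPM in diet-only and 133 ± 20.3 CPM in tofogliflozin mice (SD over 3 mice each). The 5 leukocyte markers summed to 93.2 to 110 CPM on the diet alone and 85.5 to 126 CPM with tofogliflozin, and the 3 erythroid markers to 35.7 to 129 and 67.6 to 175 CPM. The part of these cells in the miR-802 values was not tested.

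The comparison of interest was whether miR-802 differs with tofogliflozin. For miR-802-5p diet-only mice averaged 0.704 ± 0.231 CPM and tofogliflozin mice 0.491 ± 0.346 CPM (SD over 3 mice each). The log2 fold change, tofogliflozin minus diet only, was -0.35 ± 0.58 (SE), with a 95% interval of -1.70 to 1.004, which spans folds from 0.308 to 2.01. This difference was smaller than its error: edgeR's quasi-likelihood F-test gave p = 0.567 and an adjusted p of 0.942 over 462 tested miRNAs, and the exact 2-sided permutation test gave p = 0.5. In that fit 0% of miRNAs passed an adjusted p of 0.05, 4.33% (20 miRNAs) had an unadjusted p under 0.05 and 45.9% had a log2 fold change below 0. DESeq2 called 2 of the same 462 and limma-voom called 0, miR-802-5p not among them. Without tofogliflozin replicate 2 the value of miR-802-5p was -0.06, and without tofogliflozin replicate 3 it was -0.83.

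The fold change of miR-802-3p was farther from 0 than that of the 5p arm, without passing the test. Diet-only mice averaged 0.944 ± 0.386 CPM and tofogliflozin mice 0.291 ± 0.165 CPM (SD over 3 mice each). Summed over mice, these are 67 reads (0.987 CPM, exact 95% interval of the count 0.765 to 1.25) and 16 reads (0.326 CPM, 0.186 to 0.530). The default filter on low counts removed the 3p arm, so its value comes from the edgeR fit of all 1026 names with a count, where the log2 fold change was -1.63 ± 0.68 (SE), with an unadjusted 95% interval of -2.97 to -0.30 and folds from 0.128 to 0.813. The unadjusted p was 0.0165 and the adjusted p 0.544 by edgeR's quasi-likelihood test. The SE, interval and p of this fit rest almost wholly on a spread estimated over all its names. They do not measure the spread of this arm over these 6 mice. In that fit 0.78% of names passed the adjusted threshold, and 5.95% had an unadjusted p under 0.05. The exact permutation test gave p = 0.1, below which it cannot go with 3 mice a group, and the groups did not overlap for 7.6% of the names in either direction and for 3.41% with tofogliflozin below diet only.

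A filter with a smallest count of 5, chosen after seeing the data, kept 545 miRNAs with both arms among them. There miR-802-3p was at -1.63 ± 0.60 (SE; unadjusted p = 0.0266, adjusted p = 0.897 by edgeR) and miR-802-5p at -0.42 ± 0.62. In that fit 0% of miRNAs passed the adjusted threshold, and groups did not overlap for 9.91% of them (4.04% with tofogliflozin below the diet alone). Of the 545 fold changes, 1 lay below that of miR-802-3p, the -1.96 of miR-193b-3p, a miRNA singled out only for this place (adjusted p = 0.897). The median SE was 0.64 over the 148 of these miRNAs between 0.3 and 1.2 CPM, where both arms lie, and 0.15 over the 129 above 100 CPM. The unadjusted p of the 3p arm in the unfiltered fit lay between 0.00578 and 0.0901 when a library was omitted, lowest when this was diet-only replicate 3, and above 0.05 when it was diet-only replicate 1 (0.0901) or 2 (0.0621).

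**Figure D3:**
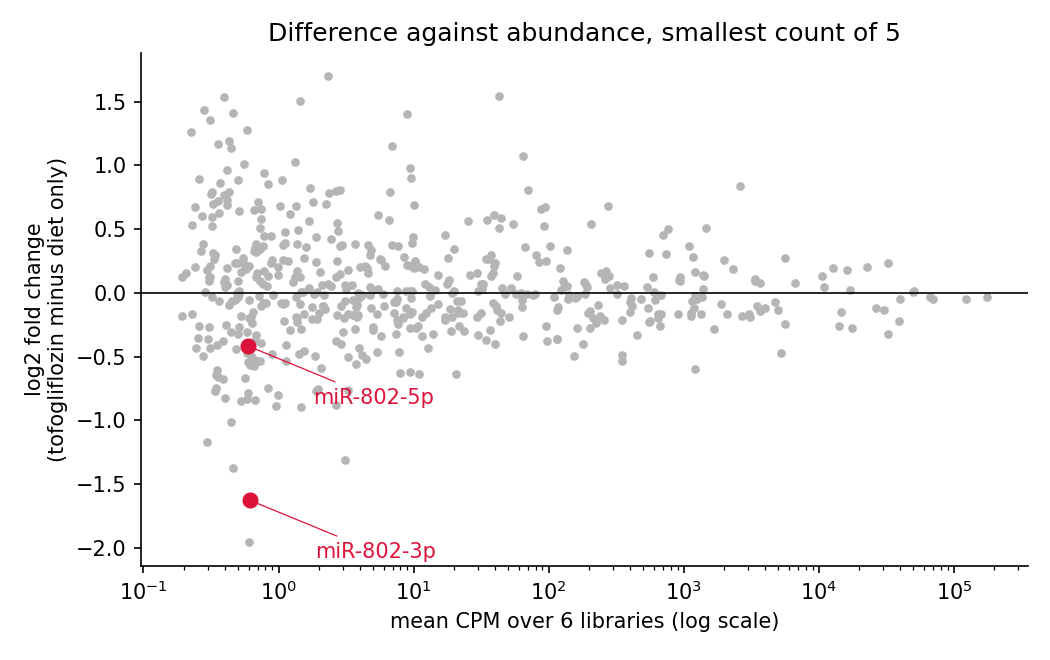
The log2 fold change, tofogliflozin minus diet only (vertical), is plotted against the mean CPM over 6 libraries (horizontal, log scale) for the 545 miRNAs kept with a smallest count of 5. The scatter widens towards low abundance, where miR-802-5p (-0.42) lies within it and miR-802-3p (-1.63) near its lower edge, above miR-193b-3p (-1.96).

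**Figure D4:**
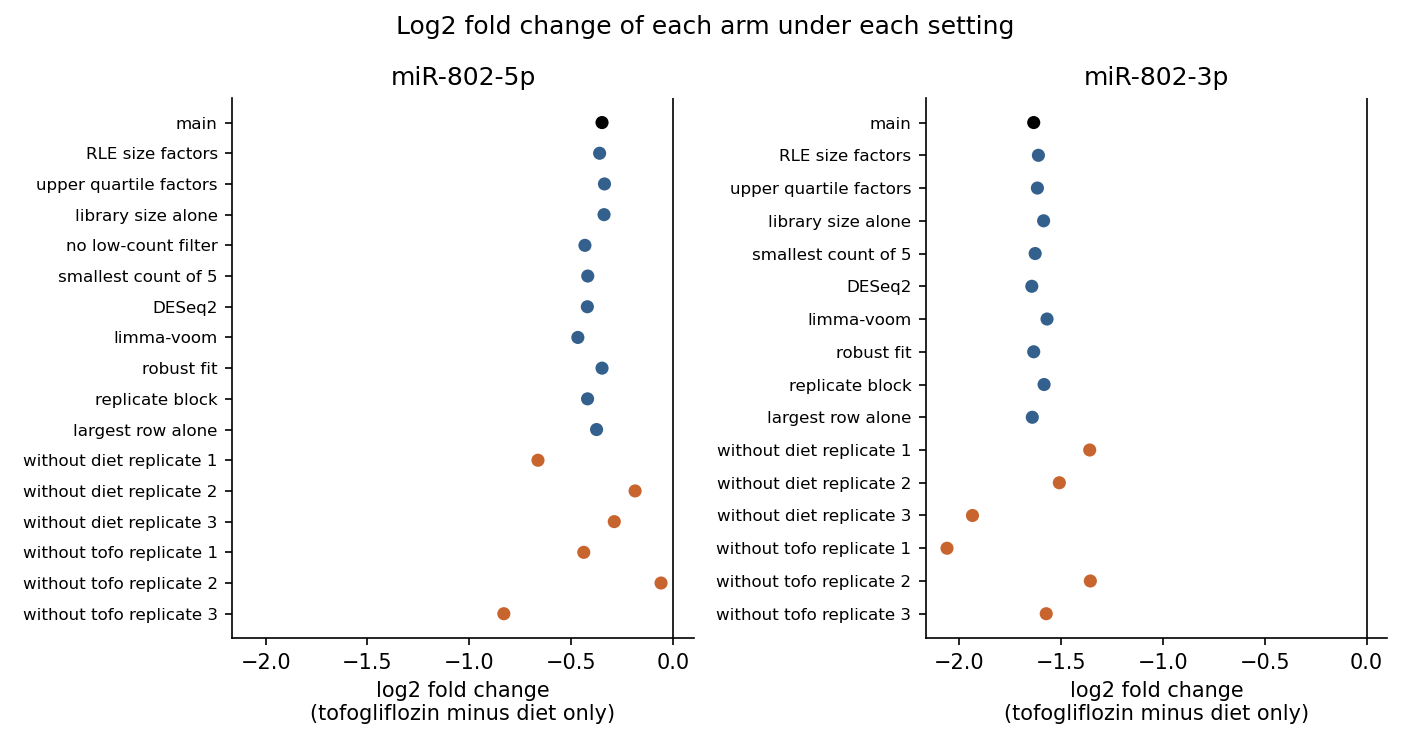
The log2 fold change of miR-802-5p (left) and miR-802-3p (right), tofogliflozin minus diet only, is shown on the horizontal axis for each setting on the vertical axis, with the main value in black, other settings in blue and libraries left out in orange. Every value is below 0, from -0.83 to -0.06 for the 5p arm and from -2.06 to -1.36 for the 3p arm, and none passed the adjusted threshold.

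How the reads of the hairpin were divided between its arms was examined next. Over all libraries 74 of 157 reads, or 47.1%, came from the 5p arm (exact 95% interval 39.1% to 55.3%), with the reads of all mice added up. This interval leaves out the spread between mice. The 5p share was 26.0% in diet-only replicate 1 (14.6% to 40.3%) and 72.0% in tofogliflozin replicate 3 (50.6% to 87.9%). The even division is thus an average that these mice do not show. In 288 hairpins with both arms listed and at least 50 reads, the larger arm took a median of 99.3% of the reads, and in 11 of them (3.82%) it took at most 60%. miR-802, at 52.9%, was among the 3 most even, with miR-7653 (50 reads in all) and miR-664, both named here for that place. This place rests on few reads and moves with single mice: with each library left out in turn, in every hairpin alike and chosen after seeing the data, it ran from 1 to 6 of 288 and the larger arm from 52.1% to 57.6%. Without diet-only replicate 1, which gave 50 of the 157 reads, the 5p arm had 61 reads and the 3p arm 46. The hairpins nearest to it in read total, with 147 to 163 reads, kept almost wholly to 1 arm. In miR-215, a relative of miR-192, 162 reads came from the 5p arm and 1 from the 3p arm. Somewhat farther off in total, others were divided too, and the following were picked for that division. miR-193b had 61 reads from its 5p arm and 80 from its 3p arm, and miR-1941 had 79 and 117.

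**Figure D5:**
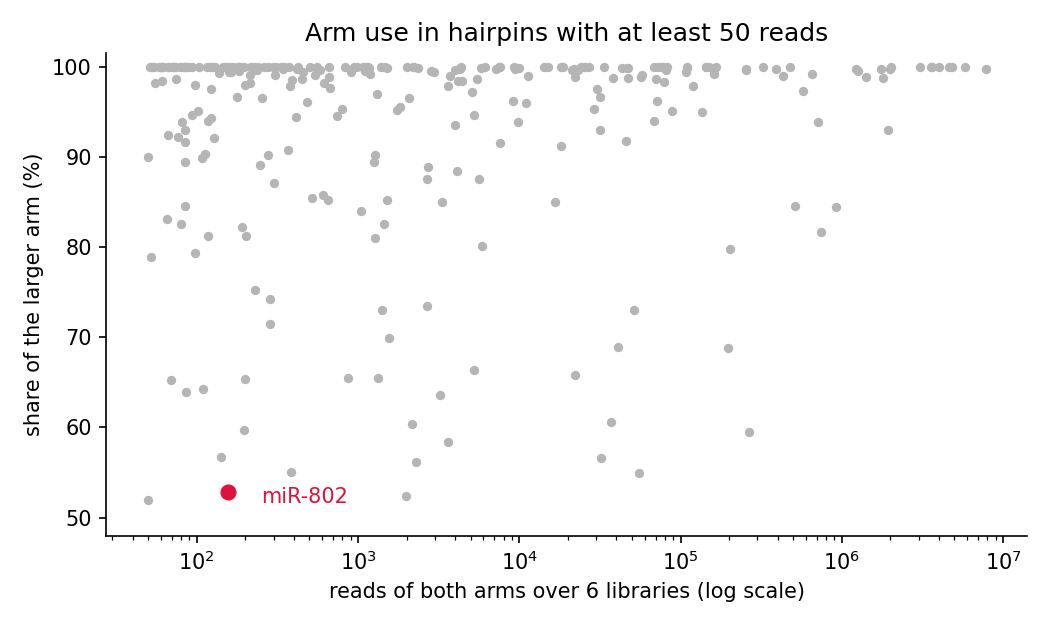
The share of reads from the larger arm (vertical, %) is plotted against the reads of both arms over 6 libraries (horizontal, log scale) for 288 hairpins with at least 50 reads. Most points lie near 100%, and miR-802, with 157 reads and 52.9%, is near the bottom.

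Between mice the division of the arms varied widely. The 5p share was 26.0%, 44.4% and 61.5% in diet-only replicates 1, 2 and 3, from 50, 36 and 26 reads. With tofogliflozin it was 55.6%, 50% and 72.0%, from 18, 2 and 25 reads. The groups overlapped, and diet-only replicate 1 was the lowest, with an exact 95% interval of 14.6% to 40.3%. On a log2 scale of 5p over 3p reads, each with 1 added, the means were -0.37 ± 1.04 and 0.51 ± 0.65 (SD, n = 3 each). The difference was 0.88, and the exact 2-sided permutation test did not separate the groups (p = 0.4). This is also the test of whether the 3p arm changed more than the 5p arm, and without diet-only replicate 1 the difference was 0.35. In limma over 111 hairpins with a mean of at least 10 reads in the lower arm, of which 0% passed an adjusted p of 0.05, miR-802 had an adjusted p of 0.937.

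The miRNAs whose levels moved most like miR-802-5p from library to library were found by the root mean square distance of log2 CPM, each centred on its own mean, over the 6 libraries and the 462 tested miRNAs. They were miR-7075-3p (0.27), miR-193a-3p (0.28), miR-33-5p (0.29), miR-362-3p (0.31) and miR-191-3p (0.32), distances in log2 units. Each had its fewest reads in tofogliflozin replicate 2, as miR-802-5p did, with 4 reads for miR-7075-3p, 2 for miR-193a-3p, 3 for miR-33-5p, 4 for miR-362-3p and 28 for miR-191-3p. That library had the smallest total, and miR-192-5p (360996 reads) and miR-375-3p (955 reads), not among these 5, also had their fewest reads there. How many of the 462 did so was not counted. The 5 were picked for nearness to a pattern in which tofogliflozin replicate 2 rests on 1 read of miR-802-5p. Tofogliflozin replicate 2 also stood apart on the first principal component of the 462 miRNAs, which held 51.8% of the variance. miR-33-5p, which lies within the sterol regulator gene Srebf2, averaged 0.924 ± 0.253 CPM in diet-only and 0.884 ± 0.471 CPM in tofogliflozin mice (SD over 3 mice each; log2 fold change 0.03 ± 0.47 SE, adjusted p = 0.985 by edgeR).

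Other miRNAs described in obese or insulin-resistant rodents did not pass the test either, and their mean levels ran from 0.904 CPM (miR-33-5p) and 1.98 CPM (miR-335-5p) to 39597 CPM (miR-143-3p). Of 16 tested, 9 were above 0 and 7 below, and the median log2 fold change was 0.05, beside 0.03 over all 462. Of the 16, 0 had an unadjusted p under 0.05 by edgeR, beside 4.33% of all 462. The adjusted threshold was passed by 0% of all 462 as well. miR-103-3p, which lowers insulin sensitivity through caveolin, was at 0.55 ± 0.31 (SE), and miR-107-3p of the same family at 0.20 ± 0.23. miR-143-3p, raised in obese liver and abundant in smooth muscle, averaged 41978 ± 1396 CPM in diet-only and 37216 ± 11396 CPM in tofogliflozin mice (SD over 3 mice each). Its log2 fold change was -0.18 ± 0.21 (SE). miR-378a-3p, from an intron of Ppargc1b, was at 0.07 ± 0.10, miR-27b-3p at -0.22 ± 0.24 and miR-21a-5p, a miRNA of kidney injury, at -0.23 ± 0.23.

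miRNAs linked to NF-κB, the pathway that Nkrf restrains, were listed for the same reason. Among 8 tested, 5 had log2 fold changes below 0 and 3 above, and the median was -0.15 (0.03 over all 462). These 8 were chosen with earlier results of these data known. They share miR-146b-5p, miR-155-5p and miR-21a-5p with the obesity list, and miR-155-5p and miR-223-3p with the leukocyte list, so the lists are not independent. The adjusted threshold of edgeR was passed by 0% of all 462 and by 0 of this list. At an unadjusted p under 0.05 there were 2, miR-146a-5p (-0.56 ± 0.22) and miR-147-3p (-1.27 ± 0.38, both SE), beside 4.33% of all 462. miR-146a-5p averaged 1446 ± 421 CPM in diet-only and 985 ± 36.2 CPM in tofogliflozin mice (SD over 3 mice each), and over all 6 libraries its mean was 2034 times that of miR-802-5p. Its close relative miR-146b-5p was at -0.06 ± 0.28 and miR-9-5p at 0.15 ± 0.19. The other members above 0 were miR-155-5p at 0.34 ± 0.38 and miR-301a-3p at 0.85 ± 0.90. For the nephron markers the median was 0.09, with 8 of the 12 log2 fold changes positive and 0 called. At an unadjusted p under 0.05 there was 1, miR-204-5p, at 196 to 217 CPM in diet-only and 299 to 385 CPM in tofogliflozin mice (log2 fold change 0.72 ± 0.15 SE, adjusted p = 0.389 by edgeR). The leukocyte list had 1 above 0 and 4 below (median -0.17), among them miR-142-5p at -0.60 ± 0.31 and miR-150-5p at -0.09 ± 0.17. Both tested erythroid markers were above 0, miR-451a at 0.40 ± 0.47 and miR-486-5p at 0.70 ± 0.52, and 0 of either list was called.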

How the data were processed

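Small RNA of mouse renal cortex was sequenced in 6 libraries, 1 per mouse. The labels' protocols name the NucleoSpin miRNA kit for RNA and the NEBNext Multiplex kit for libraries, and the submitters' processing notes name cutadapt 1.14 and mm10. Aligner, counter and miRBase release: not given in the sources used here. With 1 to 37 reads per arm and library, the mismatches that the counting allowed could change every miR-802 count and arm share, which was not tested. Raw read counts were deposited by the authors in 2033 rows per table. Identical rows of 1 mature name were taken once and differing rows added up, which left 8574081 to 29649106 counts per library as the base of CPM.

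The groups were compared with edgeR 4.0.16 (quasi-likelihood F-test, TMM factors, R 4.3.3) over all 6 libraries without covariates. The default filterByExpr was used (smallest count 10, smallest total 15), and p-values were adjusted by Benjamini-Hochberg over all tested miRNAs. The SE was taken from F and the fold change. Log2 CPM used a prior count of 2. Exact permutation tests have 20 arrangements. Alternatives were other size factors and filters, DESeq2 1.42.0, limma 3.58.1 (voom and arm ratios), a replicate block, a robust fit, the largest of repeated rows, other arm pseudocounts and each library left out. The test was tested on simulated data. Hairpins were folded with RNAfold 2.7.2, and 1603 of the 1900 names matched RefSeq by name.

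miR-802 and the context lists were chosen with earlier results of these data known. Named miRNAs were both arms, the 2 above and 2 below miR-802-5p by mean CPM, the 5 nearest in pattern and up to 4 of the highest members of each list. Others are members of a list, or are said to be picked for their values.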

Additional observations from a re-analysis of the deposited data

How the results depend on the processing

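The log2 fold change of miR-802-5p stayed below 0 and short of the threshold under all 16 alternatives that gave a value, from -0.83 to -0.06 with a library left out and from -0.47 (limma-voom) to -0.34 with other settings. That of miR-802-3p did so under 15, from -2.06 to -1.36 with a library left out and from -1.64 (DESeq2) to -1.57 (limma-voom) with other settings, with adjusted p from 0.317 to 0.998. A filter of 10 CPM in 3 libraries removed both arms and gave no value. The count of called miRNAs was 0 except for 8 without a low-count filter and 2 with DESeq2, and 0 to 0 with a library left out. The arm difference lay between 0.35 and 1.39 when a library was omitted and between 0.71 (pseudocount 5) and 0.91 (pseudocount 0.5). Ranks lay between 415 and 456 (5p) and between 416 and 467 (3p). The replicate numbers are not said to pair mice, so they were not taken as pairs. Deviations from the group means of mice with the same number correlated at r = -0.02, -0.11 and -0.17 over the 462 miRNAs. So few mice cannot settle whether the numbers pair them. With the replicate block the values were -0.42 for the 5p arm and -1.58 for the 3p arm, with 0 called miRNAs. The arm difference was then 0.88 (exact sign-flip permutation p = 0.25, the smallest that 3 pairs allow). Reads per arm, at most 37 in a library, limit every value of miR-802.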
